A study of Homo sapiens with 4 samples.

Results

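S100A8, S100A9 and S100A12 are 3 neighbouring calgranulin genes of chromosome 1, and their chromatin accessibility was followed in HL-60 cells given all-trans retinoic acid (ATRA) or its solvent. The window ran from 50 kb before the first to 50 kb after the last of these genes (hg19, chr1:153280330-153413549, 133 kb). Overlapping peaks of the 4 libraries were joined into regions, and a region belonged to the window when its centre lay inside it. This gave 11 regions in the window of 78063 in the genome.

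The assay was ATAC-seq, which reads out open DNA through the adapters that the transposase Tn5 inserts there. HL-60, an established line of human promyelocytic leukemia, can be driven toward granulocytes with ATRA. The ATRA group had been treated with 1 µM ATRA for 4 days and the control group with ethanol, the solvent, for the same 4 days, with 2 libraries in each group and no other treatment or genetic change in either. The lists held between 42081 and 63541 peaks, the longest being that of ATRA replicate 2, which covered 31.6 Mb of the genome against 16.3 to 17.5 Mb in the other lists. As a check of the cell type, the promoters of the myeloid genes SPI1 and CD33 held a peak in all 4 lists and that of MPO in both replicates 2, whereas ELANE and AZU1 had no promoter peak in any list. Of the B cell, T cell and erythroid markers reported here, CD79A had a promoter peak in ATRA replicate 2 only, and the others had none in any list.

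S100A8 and S100A9 encode small calcium-binding proteins that pair as calprotectin, an abundant protein of the neutrophil cytosol that withholds zinc and manganese from microbes. S100A12, also called calgranulin C, is a related zinc-binding protein of neutrophils, and the secreted proteins act on receptors such as TLR4 and RAGE. The genes lie in the epidermal differentiation complex, a cluster in which keratinocyte genes and S100 genes stand side by side, and they are among the genes switched on as myeloid cells mature.

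S100A9 (ENSG00000163220.11_6) runs on the plus strand from 153330330 to 153333499. S100A12 (ENSG00000163221.9_8, 153346187 to 153348097) and S100A8 (ENSG00000143546.10_8, 153362508 to 153363549) run on the minus strand. The S100A9 and S100A8 starts lie 33.2 kb apart, and the S100A12 start lies 17.8 kb from that of S100A9 and 15.5 kb from that of S100A8. Other genes of the window were PGLYRP3 (in part) and PGLYRP4, which encode peptidoglycan recognition proteins, S100A7A, an epidermal S100 gene, 4 pseudogenes and 1 small RNA gene.

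The sequences that carry the results are shown first, from the hg19 reference and 5′ to 3′. The first and the second are the 250 bases just before the annotated start of S100A9 (plus strand, chr1:153330080-153330329) and of S100A8 (minus strand, chr1:153363550-153363799), because the former was covered in ATRA-treated cells only and the latter was not. The third is the middle of the intergenic region found in ATRA-treated cells only (plus strand, chr1:153358946-153359245). The fourth is the narrowest peak of the region found in all 4 lists (plus strand, chr1:153328088-153328267). The fifth is the peak in the second intron of S100A12 (minus strand, chr1:153346603-153346799). Capitals mark TATAAA in the promoters, AGGTCA in the intergenic and intronic sequences, and TGTGGTT, the reverse complement of AACCACA, in the intergenic sequence.
S100A9 upstream: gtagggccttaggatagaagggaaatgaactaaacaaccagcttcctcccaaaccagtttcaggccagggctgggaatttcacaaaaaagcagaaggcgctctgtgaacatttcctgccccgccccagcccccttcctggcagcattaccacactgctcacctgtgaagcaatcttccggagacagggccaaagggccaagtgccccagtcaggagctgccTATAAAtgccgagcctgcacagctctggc
S100A8 upstream: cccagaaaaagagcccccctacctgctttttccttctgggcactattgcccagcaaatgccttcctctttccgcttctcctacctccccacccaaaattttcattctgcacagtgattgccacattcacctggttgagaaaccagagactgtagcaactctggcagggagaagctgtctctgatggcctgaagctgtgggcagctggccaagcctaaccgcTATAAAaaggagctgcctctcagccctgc
Intergenic, ATRA only: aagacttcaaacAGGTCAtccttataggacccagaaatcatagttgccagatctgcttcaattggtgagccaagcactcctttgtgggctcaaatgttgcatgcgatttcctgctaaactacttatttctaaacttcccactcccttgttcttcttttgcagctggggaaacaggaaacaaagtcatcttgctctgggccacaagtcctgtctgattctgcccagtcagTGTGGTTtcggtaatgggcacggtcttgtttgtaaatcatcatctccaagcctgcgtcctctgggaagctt
Upstream of S100A9, all libraries: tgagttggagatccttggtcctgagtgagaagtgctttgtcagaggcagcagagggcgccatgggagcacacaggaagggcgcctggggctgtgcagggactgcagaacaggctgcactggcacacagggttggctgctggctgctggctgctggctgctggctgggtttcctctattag
S100A12 intron: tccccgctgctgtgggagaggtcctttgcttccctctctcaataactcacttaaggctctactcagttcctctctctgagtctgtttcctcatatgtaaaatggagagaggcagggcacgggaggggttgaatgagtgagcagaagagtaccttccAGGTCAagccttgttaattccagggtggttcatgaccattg

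The window held more peaks in the ATRA-treated cells. It held 6 peaks in ATRA replicate 1 and 9 in ATRA replicate 2, compared with 1 in control replicate 1 and 2 in control replicate 2. Both ATRA lists therefore lay above both control lists, with a mean of 7.5 ± 2.12 (SD, n = 2) peaks against 1.5 ± 0.707 (SD, n = 2). The difference of 6 peaks was larger than the spread within either group, but 2 against 2 libraries cannot give a two-sided p below 0.333, which was the value found (exact permutation test). Among 18598 windows of this length across the genome that held a region, 17.3% had more peaks in each ATRA list than in either control list, and 28 windows (0.151%) had a difference of at least 6 peaks. The median difference over these windows was 0.5 peaks. Their median number of regions was 3, against 11 in this window, and they were not matched for it, so many could hardly reach such a difference. With the upper 50% of each list by score, the window held 2 peaks in each ATRA list and 0 in each control list.

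The base pairs under a peak showed the same order. Peaks covered 1805 and 3743 bp of the window in ATRA replicates 1 and 2, and 180 and 547 bp in control replicates 1 and 2, so the groups did not overlap. The mean was 2774 ± 1370 bp (SD, n = 2) with ATRA and 364 ± 260 bp (SD, n = 2) without it, a difference of 2410 bp (exact permutation p = 0.333), and 34.9% of windows of this length had more covered bases in each ATRA list than in either control list. Relative to the length of each list the order of the groups was the same, in that the window's covered bases per 1000000 covered bases of the whole list were 103 and 118 in the ATRA libraries and 10.6 and 33.5 in the control libraries. The share of windows with this order after scaling was not calculated. Without ATRA replicate 2 the difference was 1442 bp, with every peak set to 200 bp it was 1200 bp, and with the upper 50% of each list it was 916 bp. With 42081 peaks kept in every list, the window held 6 and 4 peaks in the ATRA lists and 1 and 2 in the control lists.

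**Figure D1:**
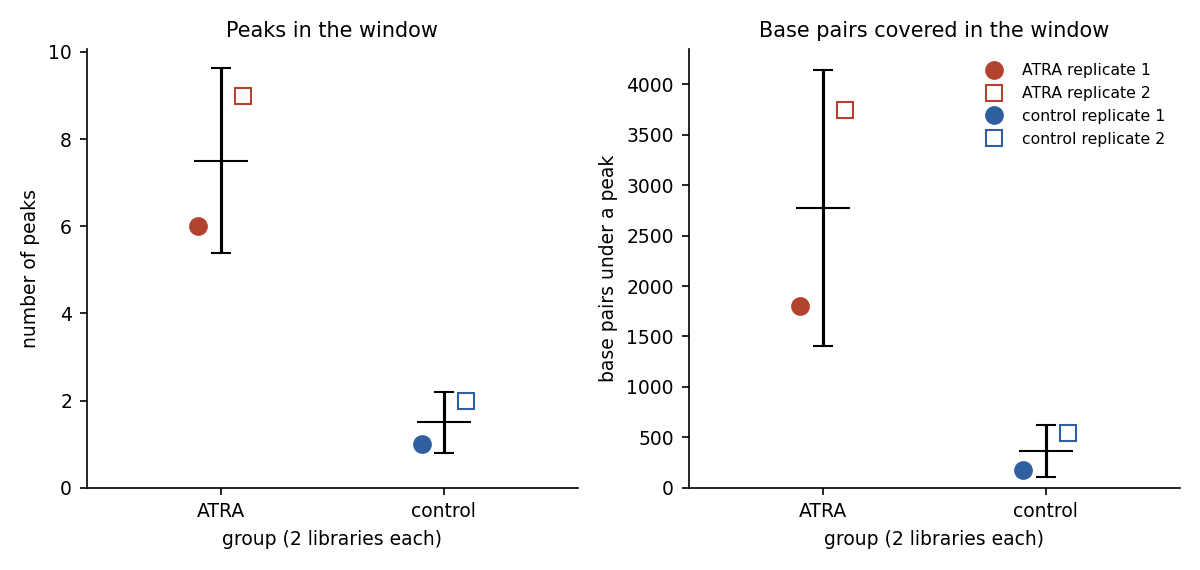
Number of peaks (left) and base pairs under a peak (right) in the window of S100A8, S100A9 and S100A12, with 1 point for each library, the mean as a horizontal line and the SD as error bars (n = 2 per group). The ATRA libraries held 6 and 9 peaks and the control libraries 1 and 2.

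By library, the 11 regions fell into few patterns. A peak in both ATRA libraries and in neither control library was found in 3 regions (27.3%), compared with 8.94% of all regions of the genome. The opposite pattern was found in 0 of the 11 regions, against 3.37% of all regions. A single region (9.09%) had a peak in all 4 lists, against 30.3% of all regions, and 1 had a peak in both replicates 2 and in neither replicate 1. The other 6 (54.5%) had a peak in a single library, against 33.4% of all regions. Of these, 2 were in ATRA replicate 1 and 4 in ATRA replicate 2, which alone held 3.79% and 19.1% of all regions. All 11 regions had a peak in an ATRA library. Regions without one were also the minority in the genome: 3.37% had a peak in both control libraries only, 4.69% in control replicate 1 only and 5.82% in control replicate 2 only. A peak in a control library was found in 2 of the 11 (18.2%), compared with 68.2% of all regions. Of windows of the same length, 1.55% held at least 3 regions with the pattern of both ATRA libraries and neither control library. The median window held 3 regions of any pattern, so this share is not matched for the number of regions. Taking ATRA replicate 2 alone as the ATRA group gave 7 such regions and taking ATRA replicate 1 alone gave 5, since regions of a single library then count. With the upper 50% of each list by score, 1 was left.

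**Figure D2:**
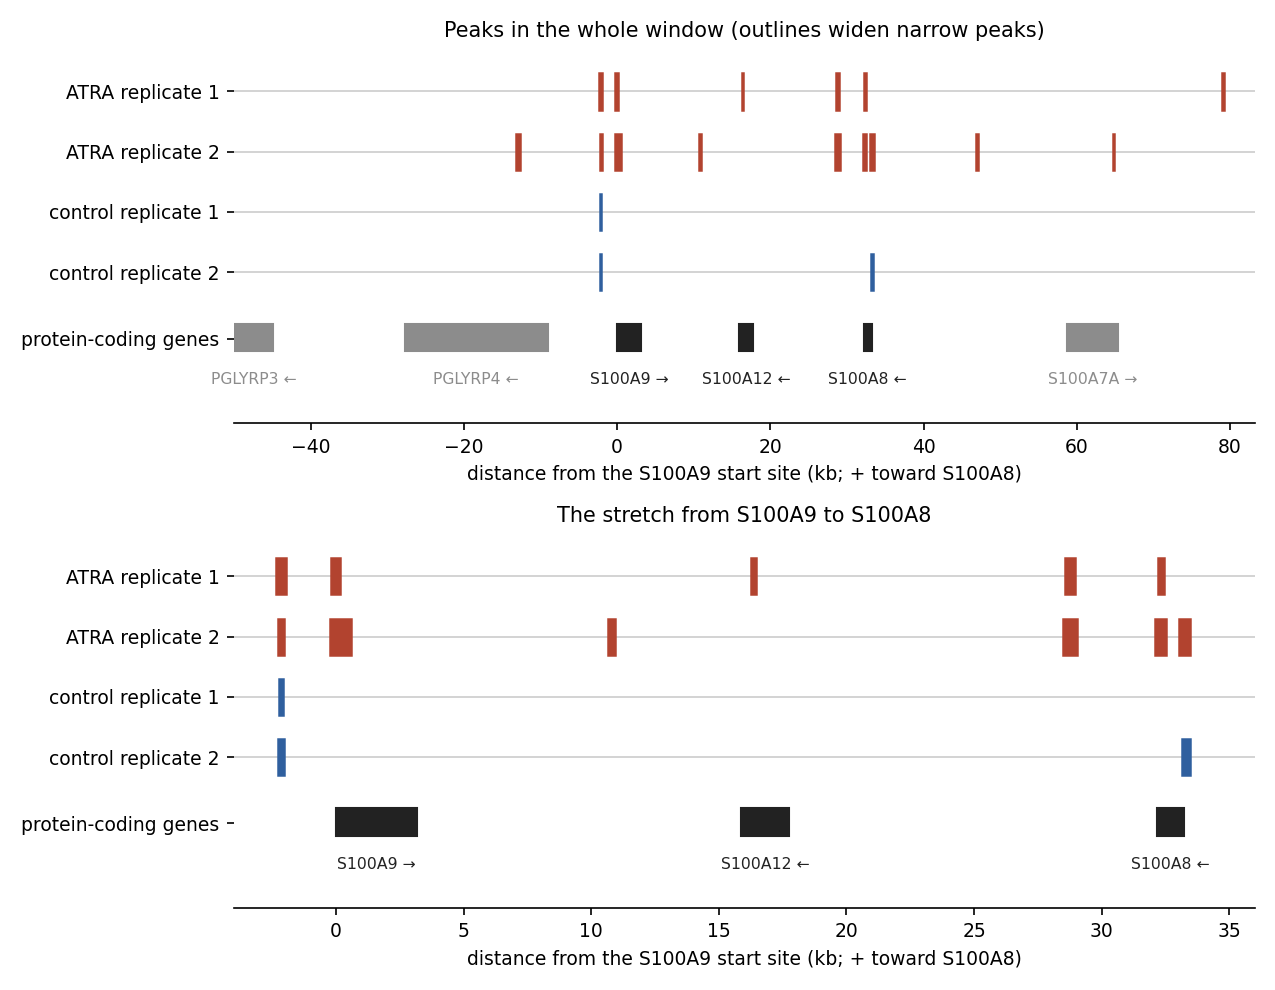
Peaks of the 4 libraries in the whole window (top) and between S100A9 and S100A8 (bottom), placed by distance from the S100A9 start site in kb, with protein-coding genes below and arrows for their strand. The region 2.15 kb upstream of S100A9 has a peak in all 4 libraries, and the S100A9 start, the intergenic region and the S100A8 last exon have a peak in both ATRA libraries and in neither control library.

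At S100A9, the larger calprotectin subunit, the promoter had a peak in ATRA-treated cells only. The peak of ATRA replicate 1 was 388 bp wide and reached from 214 bp before to 173 bp after the start. The peak of ATRA replicate 2 was 826 bp wide and reached from 252 bp before the start to 573 bp after it, past the first exon of 28 bp and into the second, coding exon. Neither control library had a peak there. Because the lists differ in length, peak scores were compared as percentiles within each list, and these peaks stood at 58.9 and 53.4. Both were above the median of all regions with this pattern, which was 32.7 in ATRA replicate 1 and 43.8 in ATRA replicate 2. A promoter peak in both ATRA libraries and neither control library was found for 435 of 19821 protein-coding genes (2.19%), where a promoter was taken from 1 kb before to 100 bp after a start. The S100A9 region kept this pattern in 11 of 11 alternative settings. Changing the flanks or leaving out a library could not have removed it, so only the other settings test it.

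A set of 7 short motifs was searched on both strands of these sequences. For regulators of granulocyte maturation, CEBP was taken as TTGCNNAA. The motif of PU.1, the myeloid factor encoded by SPI1, was GAGGAAGT, and that of RUNX factors was AACCACA. AP-1 was searched as TGANTCA. STAT factors, which relay cytokine signals, were searched as TTCNNNGAA. Factors of the GATA family were searched as AGATAA, and the retinoic acid receptor by AGGTCA, the core of its binding repeats. The 250 bases before the S100A9 start held none of the 7, and neither did those before the S100A8 start, which says only that these letters are not in them. Before the start of S100A9 the sequence held TATAAA, beginning 29 bases from it, and that of S100A8 held TATAAA at the same distance. TATAAA was searched after the sequences were seen and was found on either strand within the 250 bases before 10.1% of 20163 protein-coding genes. The share of genes with it at this distance and on the strand of the gene was not calculated.

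A second feature of the S100A9 locus was present with and without ATRA. The region 2.15 kb upstream of the S100A9 start (153327996 to 153328358, intergenic) had a peak in every library. It was 363 and 244 bp wide in ATRA replicates 1 and 2, and 180 and 234 bp wide in control replicates 1 and 2. Both ATRA peaks were therefore wider than both control peaks, a difference that was not tested. The score percentiles were 34.3 and 53.0 in the ATRA libraries and 31.5 and 45.3 in the control libraries, so the groups overlapped. The ATRA mean was 43.7 ± 13.3 (SD, n = 2) and the control mean 38.4 ± 9.80 (SD, n = 2), and their difference of 5.26 was smaller than the spread within either group (exact permutation p = 0.667). With an equal number of peaks in each list the difference was -5.34, without ATRA replicate 2 it was -4.12 and without control replicate 1 it was -1.67, so its direction was not stable. It was the only region of the window with a peak in control replicate 1, and none of the 7 fixed motifs was found in the 200 bp about its centre. Its rank was low for its kind, since the lower quartile of regions found in all 4 lists was 45.0, 62.8, 45.3 and 48.2 in ATRA replicates 1 and 2 and control replicates 1 and 2.

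At S100A8, which encodes the smaller calprotectin subunit, the region with a peak in both ATRA libraries and neither control library lay over the end of the gene. The region from 153362428 to 153362853, which takes in the whole last exon with its coding part and reaches into the second intron, had a peak of 228 bp in ATRA replicate 1 and of 426 bp in ATRA replicate 2 and none in the control libraries. These were weak peaks, with score percentiles of 9.54 and 16.2, and scores of 58.7 and 63.3 where the lists begin at 50.0. They fell below the lower quartile of regions with this pattern (17.0 and 25.6). The region lost the pattern in 3 of 11 alternatives, those that removed low scores or equalised the lists. Among the rest, changing the flanks or leaving out a library could not have removed it.

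The S100A8 start itself was not divided by treatment. A region over both annotated S100A8 starts (153363375 to 153363807) had a peak of 433 bp in ATRA replicate 2 and of 313 bp in control replicate 2, and none in ATRA replicate 1 or control replicate 1. The score percentiles were 6.74 and 27.1, so the control peak ranked higher in its list. In the genome, 5.18% of regions had a peak in both replicates 2 and in neither replicate 1. Of the calprotectin subunit genes, S100A9 thus had a promoter peak in 2 of 2 ATRA libraries and 0 of 2 control libraries, and S100A8 in 1 of 2 and 1 of 2.

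Between S100A12 and S100A8, an intergenic region (153358830 to 153359381) had the same pattern as the S100A9 promoter. Its peak was 375 bp wide in ATRA replicate 1 and 552 bp in ATRA replicate 2, and the first lay wholly within the second. The score percentiles were 58.2 and 48.5, close to those of the S100A9 promoter in the same lists and above the medians of regions with this pattern. The region ended 3126 bp from the 3′ end of S100A8 and began 10732 bp before the S100A12 start, and no control library had a peak there. It kept the pattern in 10 of 11 alternatives, some of which (the flanks and the libraries left out) could not have removed it. The pattern was lost when the upper 50% of each list was taken, where the peak of ATRA replicate 2 dropped out.

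The 300 printed bases of this intergenic region held 2 of the 7 fixed motifs, but the 200 bp about its centre held only RUNX. RUNX was found as TGTGGTT, within the 200 bp about the centre of the region, where 8.55% of all regions held the motif. The receptor motif AGGTCA began at base 13 of the printed sequence, outside those 200 bp. The share of regions with it in stretches as long as the printed one was not calculated. In the 200 bp about the centres of the 11 regions, AGGTCA was present in 2 (the S100A9 promoter region, past the start, and the S100A12 intron) against 11.2% of all regions, CEBP and GATA in the same 1 region (against 12.3% and 11.5%), PU.1 in 1 (against 8.94%), and AP-1 and STAT in 0 (against 8.32% and 6.04%). With 11 regions these counts do not set the window apart from the genome.

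S100A12 had no promoter peak in any library. ATRA replicate 1 had a peak of 197 bp in the second intron of S100A12 (153346603 to 153346799, score percentile 46.3), and ATRA replicate 2 and both control libraries had none. ATRA replicate 2 had a peak of 274 bp in the intergenic stretch 6.99 kb past the S100A12 start, on the side of S100A9 (percentile 30.4, with CEBP and GATA letters), which was absent from the other 3 lists. Neither was shared by the ATRA replicates, so no region over the body of S100A12 had a peak in both libraries of a group. Across the genome, 8546 of 19821 protein-coding genes (43.1%) likewise had no promoter peak in any list.

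**Figure D3:**
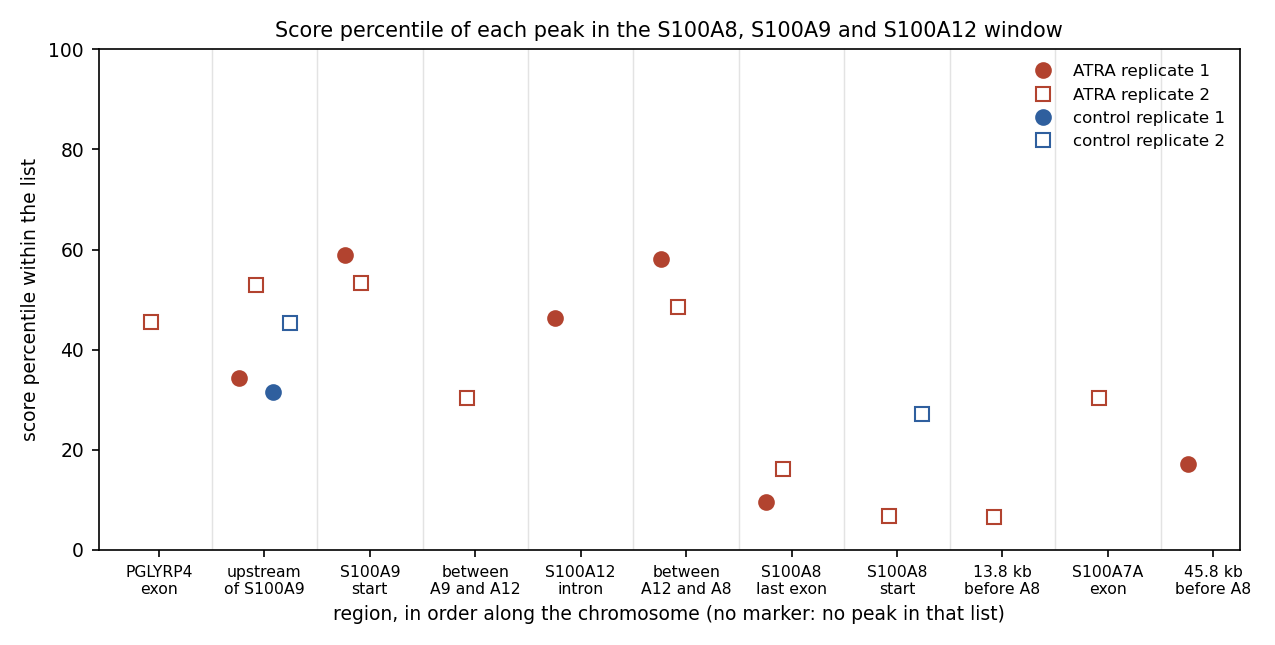
Score percentile of each peak within its own list for the 11 regions of the window, in order along the chromosome, with 1 marker for each library that had a peak. The S100A9 start (58.9 and 53.4) and the region between S100A12 and S100A8 (58.2 and 48.5) have a peak in both ATRA libraries and no control marker, the S100A8 last exon is low (9.54 and 16.2), and only 2 regions have control markers.

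The remaining regions lay away from the 3 genes and were each found in a single ATRA library. ATRA replicate 2 had a peak over an exon of PGLYRP4 (464 bp, percentile 45.6, with PU.1 letters), a peak 13.8 kb before the S100A8 start (312 bp, 6.61) and a peak over an exon of S100A7A (212 bp, 30.3). ATRA replicate 1 had a peak 45.8 kb before the S100A8 start (254 bp, 17.1). PGLYRP3, PGLYRP4 and S100A7A had no promoter peak in any library. The peaks of the ATRA libraries were densest between S100A9 and S100A8. From 1 kb before S100A9 to 1 kb past the S100A8 start, a stretch of 35.2 kb, the lists held 4 and 5 peaks in the ATRA libraries and 0 and 1 in the control libraries. The 49.0 kb before this stretch held 1 and 2 against 1 and 1, and the 49.0 kb after it held 1 and 2 against 0 and 0. Genome shares for stretches of these lengths were not calculated, so these counts only describe the window. The ATRA replicates also differed in width. In each of the 3 regions with a peak in both ATRA libraries and neither control library, the peak of replicate 2 contained that of replicate 1 and was 1.47 to 2.13 times as wide. This was not particular to the window. Over all regions of the genome with this pattern, the median width was 279 bp in ATRA replicate 1 and 399 bp in ATRA replicate 2.

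Other S100 genes were examined for comparison, from a list of 17. Within 50 kb of them lay 56 regions, 8 of which belonged to the window above because S100A7A and S100A7 are near. Of the 48 regions outside it, 19 (39.6%) had a peak in all 4 lists, 6 (12.5%) in both ATRA libraries and neither control library and 1 (2.08%) in both control libraries and neither ATRA library. The shares of all regions of the genome were 30.3%, 8.94% and 3.37%, so that of the ATRA pattern near the other S100 genes was close to the genome's. In the window the corresponding numbers were 1, 3 and 0 of 11. The regions are few and neighbouring genes share them, so this is a description. S100A4, S100A5 and S100A6 had 3 regions each with a peak only in the ATRA libraries, as many as S100A8, S100A9 and S100A12, but beside 1 region each with a peak only in the control libraries.

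At the promoters of these 17 genes, S100A2, S100A4, S100A14 and S100B had a peak in all 4 lists, and 10 genes had none in any list. Among 19821 protein-coding genes, 42.6% had a promoter peak in all 4 lists and 43.1% had none. Of the rest of the 17, S100A11 shared the pattern of S100A9, which was found for 2.19% of protein-coding genes. Its promoter peak, over the start of a gene for a widely expressed S100 protein, was 1054 bp wide in both ATRA libraries (score percentiles 83.1 and 71.8). ATRA replicate 2 had a further promoter peak of 818 bp (17.0), and neither control library had a promoter peak. S100A5 had a promoter peak in ATRA replicate 2 only, and S100Z in ATRA replicate 2 and control replicate 1.

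**Figure D4:**
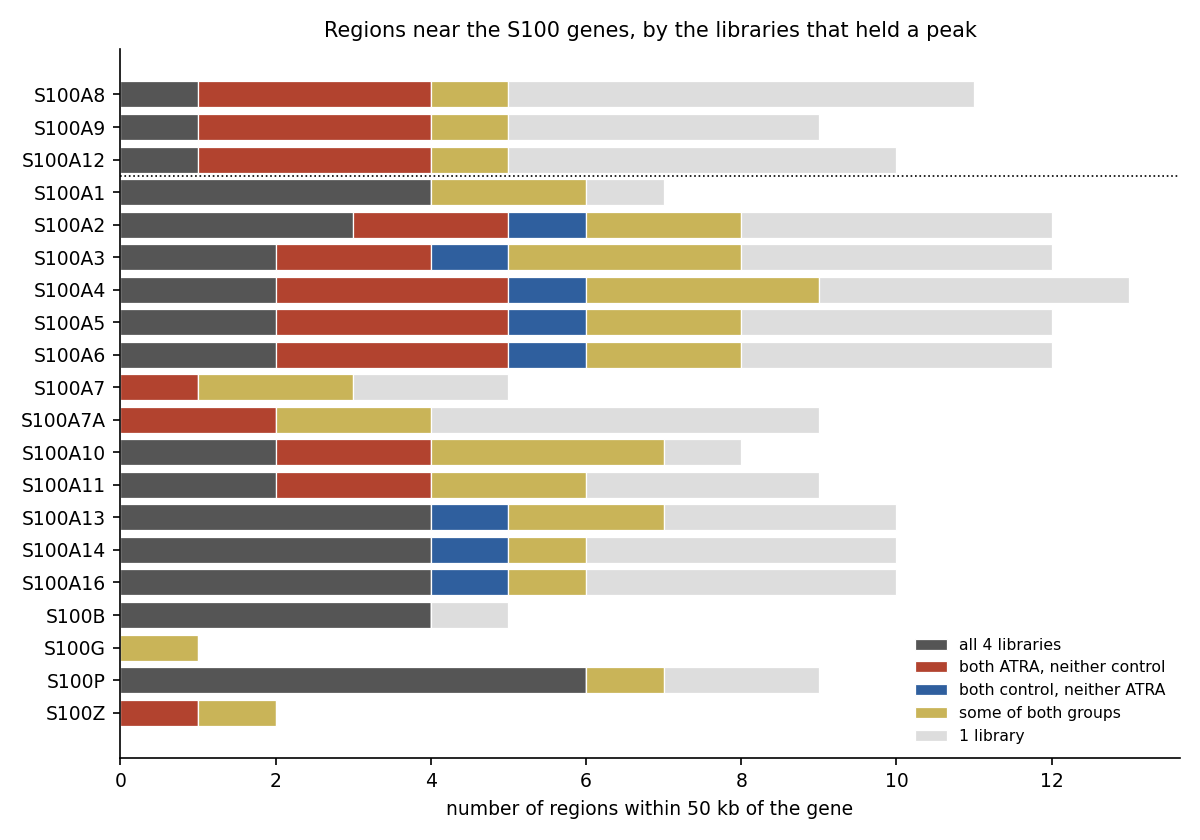
Number of regions within 50 kb of each S100 gene, stacked by the libraries that held a peak, with S100A8, S100A9 and S100A12 above the dotted line. Each of these 3 genes has 3 regions with a peak in both ATRA libraries and neither control library and no region with the opposite pattern; neighbouring genes share regions.

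Peak lists record only whether the signal passed the caller's threshold. The absence of a peak in a control library is therefore not evidence that its DNA was closed, and the amount by which accessibility differed cannot be given without read counts.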

How the data were processed

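The 4 ATAC-seq libraries (2 from ATRA-treated and 2 from ethanol-treated HL-60 cells, described by the study as independent biological replicates) were grouped by sample title. According to the methods and the processing notes, the authors trimmed adapters (cutadapt), aligned reads to hg19 (Bowtie in the methods, Bowtie2 in the notes) and called peaks in each library with MACS2 at default parameters. Versions, and any handling of duplicates, Tn5 offset or blacklisted regions, are not given in the sources used here. Wider or additional peaks could follow from these choices and from depth, which is unknown because the lists hold no counts. Each deposited list gives coordinates and a score per peak, whose scale is not stated; the score of the deposited lists was used only as a percentile within its list.

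Coordinates are 1-based on GRCh37 (hg19), with genes from GENCODE release 44 lifted to that assembly; 0 peaks lay on a missing chromosome or past a chromosome end. Peaks overlapping by 1 bp were joined into regions. Group differences in the window were tested by the exact permutation test over the 6 assignments of libraries. Motifs were searched on both strands, and overlapping motifs were each counted. Calculations used Python 3.11.15, pandas 2.3.3, numpy 2.4.6, scipy 1.17.1 and pysam 0.24.0, and region joining was tested on simulated data. Named genes were the members and the other genes of the window. Named regions were those found in both libraries of a group or near a start of a member; regions of single libraries, few here, were also given. The members, lists and motifs were chosen with earlier results of these data known. Alternatives were a score filter, equal list lengths, peaks of 200 bp, a 50% overlap, flanks of 25 and 100 kb, leaving out each library, a replicate block and scaling by list size. The result for 1 marker gene is not reported here.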

Additional observations from a re-analysis of the deposited data

How the results depend on the processing

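The difference in the number of peaks kept its direction in 13 of 13 alternatives and that in covered base pairs in 13 of 13. The former was 2.00 with the upper 50% of each list by score and 106 per 1000000 peaks of the list, and the latter was 916 bp and 88.7 bp per 1000000 covered bases, respectively. Leaving out single libraries gave 4.5 to 7.5 peaks and 1442 to 3380 bp. It could not reverse either direction, because both ATRA lists lay above both control lists. The 50% overlap and the replicate block leave both differences unchanged by construction, so not every alternative tests the direction. The number of regions with a peak only in the ATRA libraries (3) was within 1.5 times in 9 of 12 alternatives. It was 1 with the upper 50% of each list by score, where fewer peaks remain. Leaving out single libraries gave 3 to 7, with 7 without ATRA replicate 1 and 5 without ATRA replicate 2, and 2 were left without the lowest 20% of each list, an alternative chosen after seeing the data. The number with a peak only in the control libraries was 0 in all 12. For the region found in all 4 lists, the difference in score percentile (5.26) turned to -5.34 with an equal number of peaks per list, to -1.67 without control replicate 1 and to -4.12 without ATRA replicate 2, with a range of -4.12 to 14.6 over the libraries left out; the cause was not tested. This difference has no value for the upper 50% of each list, where no region of the window was in all lists.

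The sample titles link the replicates of the groups only by number, and do not say whether same-numbered libraries were prepared together. Same-numbered lists shared 50.3% and 50.3% of their joined regions, and lists of different number and group shared 48.2% and 47.1%. With the replicate number as a block, the differences were 6 peaks, 2410 bp and 5.26 percentile points as before. Each had an exact sign-flip p of 0.5, the smallest that 2 pairs allow. The 3 regions with a peak only in the ATRA libraries are gained within both pairs by their definition, so the block does not test them.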

Other observations

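Genes for receptors and partners of the calgranulins were also open to inspection. TLR4, the lipopolysaccharide receptor on which calprotectin acts, CD33, a sialic acid-binding receptor of myeloid cells, BSG (basigin) and NPTN (neuroplastin) had a promoter peak in all 4 lists, a pattern shared by 42.6% of protein-coding genes. AGER, which encodes RAGE, and CD36, a scavenger receptor, had a promoter peak in none. Of 49 regions within 50 kb of these 6 genes, 5 (10.2%) had a peak in both ATRA libraries and neither control library, near the 8.94% of the genome. They lay at NPTN (2), CD36 (2) and CD33 (1). TLR4 and CD36 had 1 region each with a peak only in the control libraries.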
